A study of Macaca mulatta with 28 samples.

Results

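The baseline transcriptome of the ventral tegmental area (VTA) was described in the 11 control macaques, out of 28 animals in the whole study. Each control was a wild-type male rhesus macaque with the treatment Control, and all animals of the study were between 7 and 8.3 years old. They served as calorically yoked or as housing controls of the drinking animals, and the labels do not tell which control was which. Members were chosen by name, as every column of the count table that carried the word Control, and no measured value entered the choice. Each animal gave 1 library from a frozen punch of bulk VTA tissue, and the label of 30 days of abstinence is shared by the control animals. Controls 1 to 8 belonged to cohort 1 and controls 9 to 11 to cohort 2, and n is 11 animals unless stated otherwise.

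The VTA is a midbrain region whose dopamine neurons project to the nucleus accumbens and prefrontal cortex, and it also holds GABA neurons, glutamate neurons and cells that release more than 1 transmitter. A dopamine neuron is recognized by tyrosine hydroxylase (TH), the rate-limiting enzyme of dopamine synthesis, by the decarboxylase DDC, by the vesicular transporter SLC18A2 and by the dopamine transporter SLC6A3, which returns the released transmitter to the cell. GABA neurons load their vesicles with SLC32A1, and the glutamate neurons of the midbrain load theirs with SLC17A6. A bulk punch mixes these neurons with glia, vessel cells and fibre tracts, so that fewer cells of a type and less RNA per cell cannot be told apart in any value below.

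The counts assigned to the listed transcripts ranged from 12303914 to 27338669 per animal, with a median of 22339349. Between 36.4 and 60.6% of them fell on the 13 protein-coding transcripts of the mitochondrial genome. Of 16885 named transcripts, 9621 had a count in every control, 1909 were listed at 0 in all 11, and 12625 passed a filter of at least 5 counts in at least 3 animals. The table holds 1 transcript per gene, and whether reads of the other transcripts of a gene were added to it is not given in the sources used here. Astrocyte GFAP, for example, was listed with only 11 to 145 counts, and the housekeeping gene HPRT1 was at 0 in 6 animals. A gene listed at 0 can therefore not be called silent. By counting error alone, a count of 0 allows up to 3 counts, or 0.110 to 0.244 CPM (counts scaled to library size) depending on the library. Levels are given as CPM per kilobase, that is CPM after TMM scaling divided by the length of the longest RefSeq coding transcript. Since the length of the listed transcript itself was not used here, an order between genes holds only as far as these lengths do. Over the transcripts that passed the filter their median was 2.69, the 90th percentile 32.7 and the 99th percentile 299.

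Myelin, glial metabolism and housekeeping genes led the nuclear transcriptome. PEA15, an astrocyte-rich phosphoprotein, had 2945 in the lowest animal, a median of 3582 and 4915 in the highest animal. All animals thus lay within a narrow band. The glycolytic enzyme GAPDH had a median of 2221, ferritin light chain FTL 2052 and the oligodendrocyte-rich tubulin TUBB4A 1786. Prostaglandin D synthase PTGDS stood at 1715, the cytoskeletal actin ACTB at 1385 and glutamine synthetase GLUL, the astrocyte enzyme that turns glutamate into glutamine, at 1290. The myelin protein MBP at 1191 and the amyloid precursor-like protein APLP1 at 1077 were also among the 10 highest. The 10 most abundant nuclear transcripts held a median of 8.41% of all nuclear counts, the 100 most abundant 26.3% and the 1000 most abundant 62.4%. The range over animals was small for each, at 7.24 to 9.49%, 24.5 to 27.9% and 60.9 to 63.6%.

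Among the cell class lists, oligodendrocyte genes had the largest summed level, from 4250 to 7399 with a median of 6253. Astrocyte genes summed to 1705 to 2337 with a median of 2111, and the general neuronal genes to 1128 to 3085. All 3 lists were above every other class in every animal, and the oligodendrocyte values did not overlap those of the astrocyte and neuronal lists. The neuronal sum rested on SNAP25, a synaptic fusion protein with a median of 319.9, on the neurofilaments NEFL at 390.3 and NEFM at 326.2, and on the deubiquitinase UCHL1 at 585.8. Of the 9 listed neuronal genes 7 passed the filter, and 6 of these were above the median of all transcripts, STMN2 and MAP2 among them. RBFOX3 was listed at 0 in all 11 animals, SYT1 in 9 and ENO2 in 7. Astrocyte genes were led by GLUL, the calcium-binding protein S100B at 552.7 and the gap junction protein GJA1 at 186.9, whereas SLC1A2 and ALDH1L1 were listed at 0 in every control.

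The GABA neuron list had a median sum of 240.6 for its 5 listed genes, and microglial genes, led by the complement gene C1QB and the antigen-presentation chaperone CD74, one of 232. Oligodendrocyte precursor genes summed to 84.8, mural cell genes to 43.3 and endothelial genes to 32.5 in the median animal. These lists differ in size and in how many members the table holds, so the sums order the listed genes and not the numbers of cells. From the lowest to the highest control, the sums of glial and vessel lists spread by 1.37-fold for astrocytes, 1.59-fold for oligodendrocyte precursors, 1.65-fold for microglia, 1.73-fold for endothelial cells, 1.74-fold for oligodendrocytes and 2.57-fold for mural cells. The dopamine neuron list behaved otherwise, with sums from 15.2 to 766, a 50.5-fold spread. Of the cell class lists with a median sum above 10, only that of ependyma and choroid plexus spread more, by 85.2-fold, and it followed a single gene, transthyretin (TTR), at 4.64 to 422.6. TTR was highest in control 5, at 422.6, then at 188 in control 4 and 177 in control 10, and lowest in control 7. Controls 4, 5 and 10 were also high in dopamine genes, but controls 3 and 8, likewise high in these, had TTR at 24.7 and 97.4, and control 2, the lowest in TH, had 82.0. The part of TTR-expressing tissue in either spread was not tested.

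**Figure D1:**
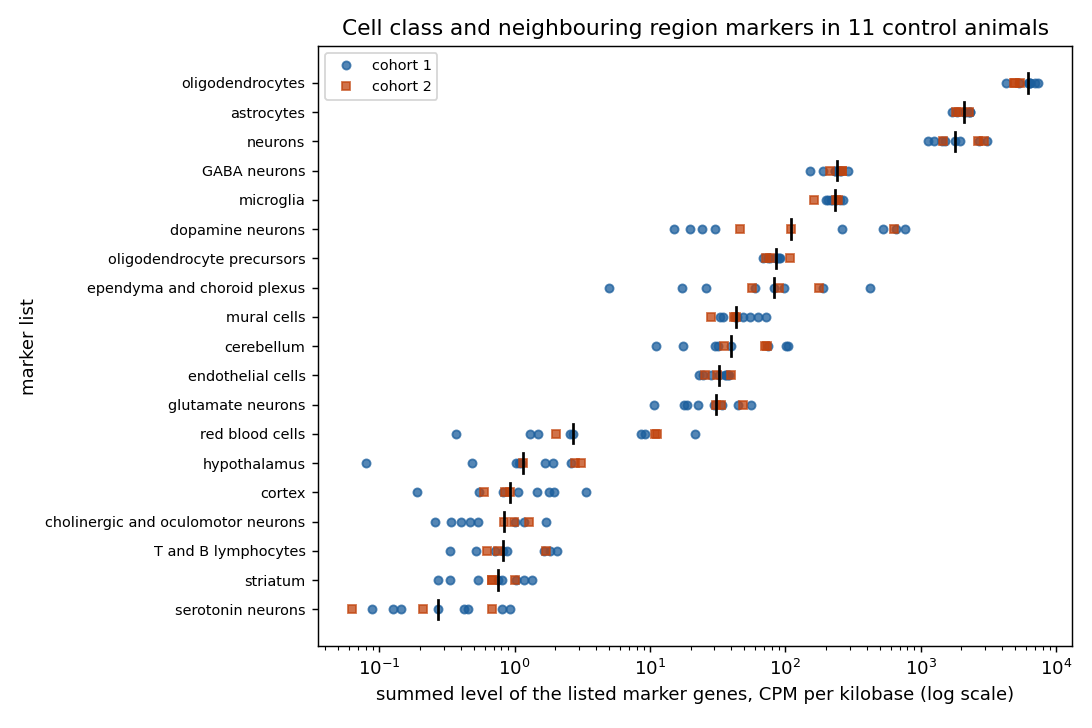
Summed level of the listed marker genes of each cell class or neighbouring region in the 11 control animals, in CPM per kilobase on a log axis, with circles for cohort 1, squares for cohort 2 and a black bar for the median. Oligodendrocyte sums lie between 4250 and 7399, and dopamine neuron sums run from 15.2 to 766.

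Genes that define neighbouring regions were examined as lists. Among the serotonin neuron genes of the raphe, TPH2, which makes serotonin, had 2 to 30 counts, while SLC6A4 was listed at 0 in 10 of 11 animals and FEV in all 11. In the noradrenaline neuron list of the locus coeruleus, DBH reached at most 5 counts and SLC6A2 was at 0 throughout. The cholinergic and oculomotor genes CHAT, SLC18A3 and PHOX2A reached at most 26, 9 and 6 counts. Hypothalamic peptide genes were equally low, with at most 47 counts for PMCH, 15 for AVP and 12 for HCRT. Cortical NEUROD6 reached 118 counts. Striatal PPP1R1B reached 11, while DRD1 of the same list passed the filter with a median level of 0.758. Of the cerebellar list, CBLN1, a synaptic organizer also made by other neurons, ranged from 9.15 to 104.9. The Purkinje cell gene PCP2 had 0 to 12 counts. GABRA6 of the same list also passed the filter, with a median of 1.01, below the median of all transcripts. Of the blood genes, HBA had 4 to 116 counts, HBM was at 0 in 10 animals and ALAS2 in all 11, while HBA1, HBA2 and HBB were not analysed here.

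The transmitter systems were ranked by the level of 1 marker gene each, with SLC17A6, SLC17A7 and SLC17A8 for glutamate. By median level the order was TH at 60, SLC32A1 at 34.2, SLC17A6 at 28.5, SLC17A8 at 1.83, SLC17A7 at 0.917, TPH2 at 0.271, HDC at 0.130, CHAT at 0.0512, DBH at 0.0429 and SLC6A5 at 0.0229. The median of TH moved to 39.7 without any 1 of controls 3, 4, 5, 8 and 10 and to 102 without any 1 of controls 1, 2, 6, 7 and 11. TH ranked 664th among all transcripts, SLC32A1 1180th and SLC17A6 1403rd. By median level, TH, SLC32A1 and SLC17A6 thus stood apart from the other 7 genes, including the 2 other glutamate transporters. The genes of serotonin (TPH2), histamine (HDC), acetylcholine (CHAT), noradrenaline (DBH) and glycine (SLC6A5) all had medians of at most 8 counts.

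Neighbours in this order were compared by the log2 ratio of their levels within each animal. The exact two-sided permutation test flips the sign of each animal and can give no p below 0.000977, adjusted over 9 pairs. The order came from the medians of these same animals, so the p-values are not those of an order fixed beforehand. SLC17A6 exceeded SLC17A8 in 11 of 11 animals, by 3.70 ± 1.25 on the log2 scale (SD, n = 11, exact permutation adjusted p = 0.00439). SLC17A8 exceeded SLC17A7 in 9 of 11, by 1.24 ± 1.22 (exact permutation adjusted p = 0.0234), and SLC17A7 exceeded TPH2 in 11 of 11, by 1.52 ± 1.12 (exact permutation adjusted p = 0.00439). The step from SLC17A8 to SLC17A7 was the least firm of these, since it was about as large as its SD, ran the other way in controls 5 and 6, and missed the threshold in cohort 1 alone (exact permutation adjusted p = 0.0938). The remaining 6 steps did not pass the adjustment. SLC32A1 was above SLC17A6 in 8 of 11 animals, by 0.59 ± 0.86 (exact permutation p = 0.0459, adjusted p = 0.103), and TH was above SLC32A1 in only 6 of 11, by 0.30 ± 2.96 (exact permutation adjusted p = 0.740).

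**Figure D2:**
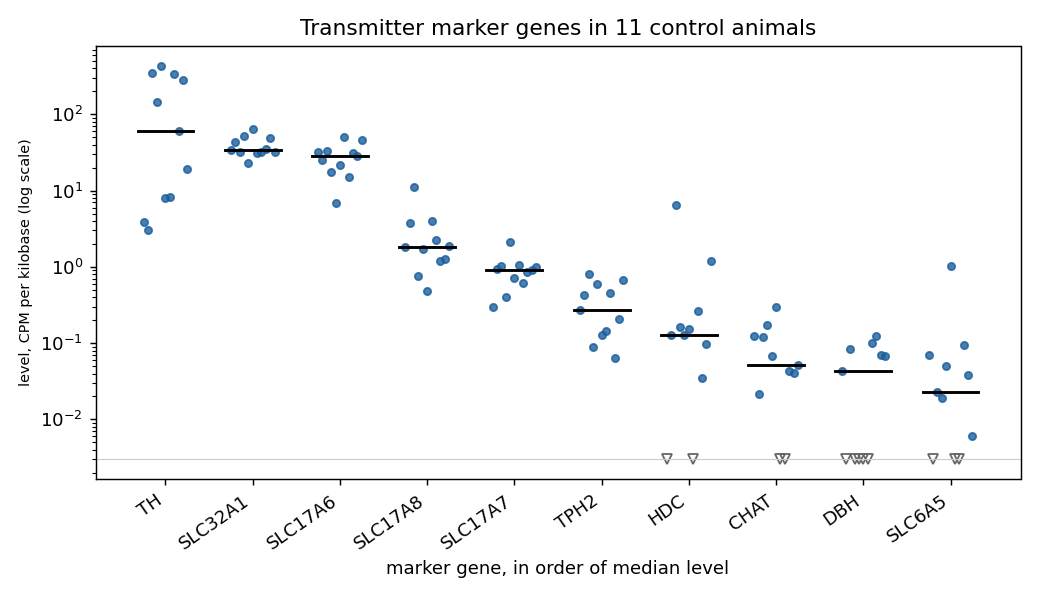
Level of each transmitter marker gene in the 11 control animals, in CPM per kilobase on a log axis, with 1 circle per animal, a black bar for the median and open triangles on the lowest line for animals at 0. TH covers the widest range among the leading genes, from 3.04 to 435, around a median of 60, whereas SLC32A1 stays between 22.8 and 64.1.

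The first place of TH thus belonged to the median and not to each animal. The ratio of TH to SLC32A1 ran from 0.0697 to 19.1 between animals, and that of TH to SLC17A6 from 0.121 to 63.6. GABA over glutamate was far steadier, with SLC32A1 to SLC17A6 ratios from 0.616 to 3.33 and a geometric mean of 1.51. When levels were not corrected for length, the log2 difference turned to -0.10 for TH over SLC32A1 and to -0.20 for SLC32A1 over SLC17A6, and neither value passed the test.

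TH itself (chromosome 14, 2224320 to 2232217, minus strand, Mmul_10) had 83 counts in the lowest animal, a median of 2447 and 18843 in the highest. Its levels were 435 in control 5, 346 in control 3, 340 in control 8, 280 in control 10 and 145 in control 4, then 60 in control 9 and 19.4 in control 11. Controls 6 and 7 stood at 8.09 and 8.24, and controls 1 and 2 at 3.85 and 3.04. The widest gap between neighbouring animals, leaving out the gaps at both ends, was 1.62 on the log2 scale for TH, above the 1.5 set for calling values separate clusters, whereas it was 1.40 for GFAP. Both cohorts held high and low animals. SLC6A3 followed the same course, with 1.63 in control 1, 2.15 in control 6, 2.24 in control 2 and 3.02 in control 7 at the low end and 206 in control 10, 174 in control 3 and 127 in control 5 at the high end. SLC18A2 ran from 0.0359 in control 2 to 39.0 in control 5 around a median of 2.99, and DDC from 0.237 in control 1 to 83.7 in control 5 around 8.43. Both medians were the value of control 9 and depend on the animals included. Their neighbours, controls 11 and 4, had 2.22 and 9.34 for SLC18A2 and 1.98 and 22.3 for DDC. The same 5 animals, controls 3, 4, 5, 8 and 10, held the highest values of all 4 genes.

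While the levels of these genes spread over more than 100-fold, their ratios to TH spread less. SLC6A3 stood to TH at a ratio of 0.233 to 0.737 with a geometric mean of 0.40, DDC at 0.0664 to 0.323 with a geometric mean of 0.143, and SLC18A2 at 0.0147 to 0.132 with one of 0.0669. The SD of the log2 ratio was 0.54 for SLC6A3, 0.61 for DDC and 0.87 for SLC18A2, against 2.81 for log2 TH itself. The place of SLC6A3 below TH depends on the length used, since with its shortest RefSeq transcript (2062 in place of 3922 bases) the ratio ran from 0.441 to 1.40 and SLC6A3 exceeded TH in 2 of 11 animals. All 4 genes passed the filter, as did each of the 13 genes in the dopamine neuron list. The D2 autoreceptor DRD2 ranged from 0 in controls 2 and 9 to 31.2 in control 5, and RET, a receptor of glial neurotrophic factors, from 1.93 to 30.3. Of the transcription factors that specify these neurons, 4 had medians below that of all transcripts. EN1 had a median of 1.02, PITX3 one of 0.445, LMX1B one of 0.440 and NR4A2 one of 0.0498, with EN1 and LMX1B highest in controls 5 and 8. NR4A2 was highest in control 3, at 0.874, but stood at 0.0255 in control 10 and 0.0766 in control 5, both high in TH, and at 0.122 in control 2, the lowest in TH. FOXA2 was at 3.06 to 14.3 in all 11 animals and likewise did not keep the order of TH, with 3.25 and 5.54 in controls 4 and 5.

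**Figure D3:**
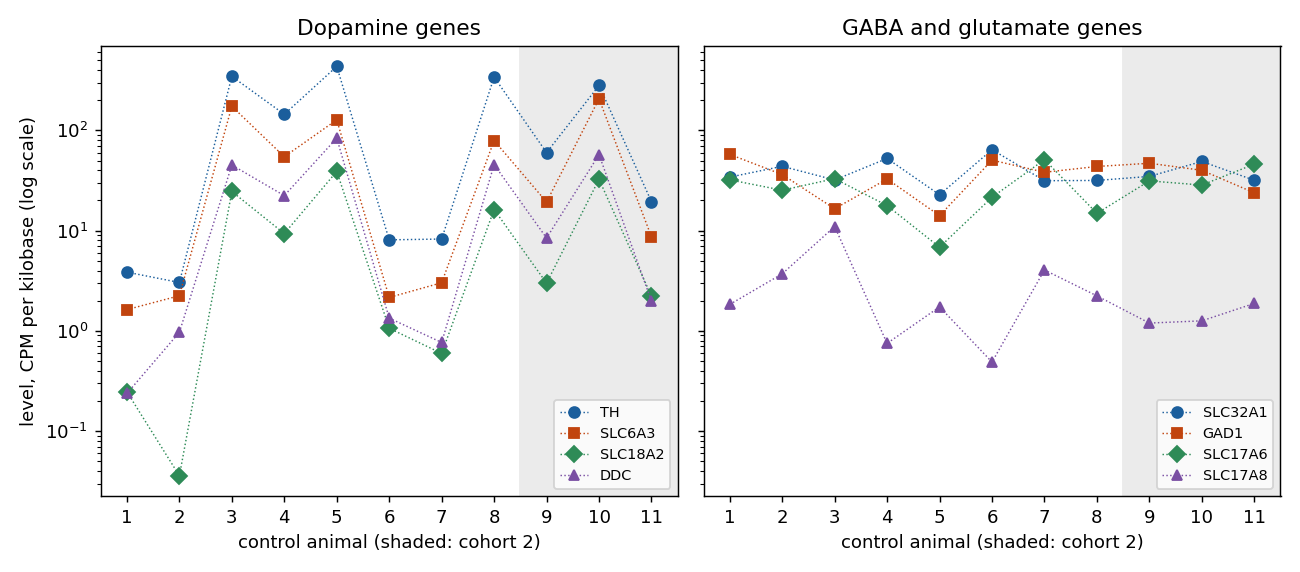
Level of dopamine genes (left) and of GABA and glutamate genes (right) in each control animal, in CPM per kilobase on a shared log axis, with cohort 2 shaded. TH, SLC6A3, SLC18A2 and DDC are high together in controls 3, 4, 5, 8 and 10, while SLC32A1 and GAD1 stay within 14.1 to 64.1.

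The promoters of 3 of these genes are printed because the genes varied together across the control animals. Each is 300 bases of Mmul_10 around the most 5′ start that RefSeq annotates for a coding transcript, from 250 bases before it to 50 bases from the start onward, given 5′ to 3′ on the strand of the gene. Capitals mark matches on either strand to 1 of 6 motifs: AAAGGTCA, the element bound by NR4A2; TGACGTCA, the cyclic AMP response element; TAATCC, a site of bicoid-type factors such as PITX3; TGTTTAC, a forkhead site; GGGCGG, the GC box; and TATAAA, the TATA box.
TH, chr14:2232168-2232467, minus strand: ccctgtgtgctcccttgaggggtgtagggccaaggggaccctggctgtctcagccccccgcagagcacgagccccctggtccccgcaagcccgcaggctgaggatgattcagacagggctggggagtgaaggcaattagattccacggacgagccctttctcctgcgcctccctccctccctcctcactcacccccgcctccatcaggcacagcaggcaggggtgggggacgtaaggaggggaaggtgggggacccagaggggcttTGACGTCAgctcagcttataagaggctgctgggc
DDC, chr3:64711386-64711685, plus strand: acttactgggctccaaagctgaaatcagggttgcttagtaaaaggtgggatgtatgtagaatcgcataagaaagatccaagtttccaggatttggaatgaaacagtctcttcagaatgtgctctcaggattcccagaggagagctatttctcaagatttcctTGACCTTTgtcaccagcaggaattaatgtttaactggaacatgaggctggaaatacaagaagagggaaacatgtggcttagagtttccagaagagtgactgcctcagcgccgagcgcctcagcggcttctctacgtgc
SLC18A2, chr9:117717117-117717416, plus strand: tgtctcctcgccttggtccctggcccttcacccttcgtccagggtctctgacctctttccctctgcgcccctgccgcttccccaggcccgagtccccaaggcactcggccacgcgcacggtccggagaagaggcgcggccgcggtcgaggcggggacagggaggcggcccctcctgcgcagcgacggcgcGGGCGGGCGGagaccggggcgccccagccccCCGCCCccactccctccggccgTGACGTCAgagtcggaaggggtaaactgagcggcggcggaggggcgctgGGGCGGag

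The cyclic AMP response element was found in TH and SLC18A2, against 2.01% of the 20776 promoters of the same length. The NR4A2 element was found in DDC, on the opposite strand, against 1.08% of all promoters, and the GC box in SLC18A2, against 48.5%. No window held the bicoid site, the forkhead site or the TATA box, which 10.4, 2.96 and 11.1% of all promoters held. In SLC18A2, 2 of the GC box matches overlap each other. GC content was 65.7% in TH, 75.3% in SLC18A2 and 45.7% in DDC, around a median of 58.3% over all promoters. A match of letters is a description and was not read as a binding site.

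Genes that kept the rank order of TH across the 11 animals were named by Spearman's rho, as a description of the points in the same libraries. Of 9058 other transcripts compared, 28 had a rho of at least 0.9 and 2 one of at most -0.9. The highest were NNAT, a neuronal membrane protein, at 0.97, SLC18A2 at 0.96, and the nicotinic subunit CHRNB3, the neurotensin receptor NTSR1 and MAD1L1 at 0.95. IGFBP4 and the vesicular protein SLC10A4 had 0.95, and the cholecystokinin receptor CCKAR, the calcium buffer CALB1 and COG2 had 0.94. The sizes differed widely. NTSR1 had 25.9 normalized counts in the lowest animal, a median of 92.6 and 961 in the highest, a 37.2-fold range, and CHRNB3 a 73.3-fold range. NNAT moved by only 2.85-fold, and COG2, a Golgi transport subunit, by 1.44-fold. The opposite end was held by KBTBD2 at -0.93 and ITSN2 at -0.90.

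The D2 receptor DRD2 was highest in the same 5 animals as TH, at 31.2, 20.6, 14.3, 13.1 and 9.49 in controls 5, 10, 8, 3 and 4. MAOA, which breaks down monoamines, did not share this spread and ranged only from 6.41 to 11.9. MAOB, the other form of this enzyme, was at 0 in 7 of 11 animals. DRD1, DRD3, DRD4 and DRD5 had medians of 0.758, 0.174, 0.471 and 0.539, so that DRD2 was the only 1 of the 5 dopamine receptors above the median of all transcripts. The biological coefficient of variation (CV), which is the SD over the mean of normalized counts after counting error is taken off, was 1.12 for TH, 1.22 for SLC6A3, 1.22 for SLC18A2 and 1.19 for DDC, against 0.235 for MAOA and a median of 0.212 over the 9059 transcripts with a mean of at least 50 normalized counts.

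The genes of the GABA machinery spread less between animals than those of the dopamine machinery, with a median CV of 0.257 over 6 genes against 1.19 over 5, but not less than the median of 0.212 over all transcripts. SLC32A1 ran from 22.8 in control 5 to 64.1 in control 6 with a median of 34.2, and GAD1, which makes GABA, from 14.1 in control 5 to 57.6 in control 1 with a median of 38.2. The GABA uptake transporter SLC6A11 was higher and steadier, at 219 to 383 and a median of 309.6. Control 5, the animal with the most TH, had the lowest sum of the GABA machinery, at 376, whereas the other 10 animals lay between 509 and 647. GAD2 was listed far below GAD1, at 0.869 to 3.0. The midbrain GABA factor GATA3 ranged from 3.14 to 15.2. Of 17 GABA receptor genes 13 passed the filter, and the metabotropic subunits GABBR1 at 16.9 and GABBR2 at 13.6 were the highest. GABRE at 6.75 and GABRA5 at 3.50 followed.

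Among glutamate genes, SLC17A6 ran from 6.83 in control 5 and 14.9 in control 8 to 46.0 in control 11 and 51.1 in control 7, with a CV of 0.463. SLC17A8 stood apart in control 3, at 11.0 against 0.488 to 4.05 in the other animals, and SLC17A7, the cortical transporter, never passed 2.11. The relation of SLC17A6 to MBP was negative across animals (Pearson r = -0.70, permutation p = 0.0134, Spearman rho = -0.73, permutation p = 0.0142), but it missed the threshold after adjustment over the 6 pairs that could be given (adjusted permutation p = 0.0804 and 0.0854). Without the 2 animals farthest from the median of SLC17A6, r was -0.50, and within cohort 1 it was -0.71. The other 5 pairs among SLC32A1, SLC17A6, MBP and GFAP had adjusted permutation p of 0.185 or above for r, and the 4 pairs with TH were not given because its gap passed that limit. Of 22 glutamate receptor genes 21 passed the filter, and 6 of these were above the median of all transcripts. The obligatory NMDA receptor subunit GRIN1 led at 38.5 to 76.1 with a median of 64.7, followed by the AMPA receptor subunit GRIA1 at 20.8 and the kainate receptor subunit GRIK5 at 15.3. GRIK5, at 14.4 to 18.3, was also among the steadiest genes measured, with a CV of 0.0660.

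Receptors for transmitters whose own synthesis genes had low counts were measured as well. Of 13 listed acetylcholine receptor genes 12 passed the filter, with CHRNA6 at a median of 3.96 and CHRNA7 at 3.63 as the highest, and 2 of the 12 were above the median of all transcripts. CHRNA6 and CHRNB3, subunits typical of dopamine neurons, had 0.531 and 0.0785 in control 6 and 9.12 and 5.76 in control 5. CHRNA6 did not keep the order of TH, with 3.98 and 4.27 in controls 1 and 7, which were low in TH, against 3.42 and 3.96 in controls 3 and 8. All 10 serotonin receptor genes that passed were below the median of all transcripts, with HTR5A at 1.78 and HTR2A at 1.26 in front, and HTR2C was counted in control 7 alone, with 156 counts. The histamine autoreceptor HRH3 reached 9.91, far above HRH1 at 0.264. Among adrenoceptors, ADRA1B at 2.85 was the highest, and ADRA2C stood at 1.68. Of the opioid receptors, OPRL1, the nociceptin receptor, had a median of 7.63 and OPRK1, the kappa receptor, 0.376 to 4.75 with a median of 1.52, whereas OPRM1 was listed at 0 in all 11 animals.

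Glycine and peptide genes completed the picture. The glycine receptor subunits GLRB at 12.8 and GLRA1 at 3.38 were expressed in every control, while the neuronal glycine transporter SLC6A5 had 191 counts in control 6 and at most 14 elsewhere. HDC, the histamine-synthesizing enzyme, had 441 counts in control 3 and 79 in control 11, and at most 15 elsewhere. Of 25 neuropeptide genes, 23 passed the filter and 5 were above the median of all transcripts. Somatostatin (SST) led with 17.1 to 155 and a median of 67.1, followed by proenkephalin (PENK) at 7.98 to 73.9 with a median of 28.1. Urocortin (UCN) at 21.0, the substance P precursor TAC1 at 20.0 and NPY at 13.9 came next. Prodynorphin (PDYN), the ligand precursor of the kappa receptor, stood at 1.21 to 11.4 with a median of 2.67, and cholecystokinin (CCK) at 0.0525 to 3.65.

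The spread between control animals was then ranked over the 9059 transcripts with a mean of at least 50 normalized counts. The median CV was 0.212, 5% of transcripts lay below 0.0857 and 5% above 0.768. A CV over 1 was found for 222 transcripts (2.45%). Most of them, 194, were listed at 0 in 1 animal or more. Of the 708 transcripts that were at 0 in some animals and reached 50 or more in another, 27.4% had a CV over 1. Among these on-off transcripts, those with the highest mean were mitochondrial ND6, DMXL2, NBR1, ZNF385A and MDN1. NBR1, an autophagy receptor, was at 0 in controls 5, 7 and 8 and between 412 and 2672 normalized counts in the other 8. Since only 1 transcript per gene is listed, whether such a gene or only its listed transcript was missing could not be told apart.

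Among transcripts counted in all 11 animals, FOSB, an immediate early gene of the AP-1 family, had the highest CV, at 1.46. Its first place did not hold in most sets with 1 animal left out. Without control 1, 2, 3, 4, 5, 6 or 8, at least 1 of IL33, C1QL3 and CDH23 had a higher CV than FOSB. Without control 3, for example, the CV was 1.67 for IL33 against 1.48 for FOSB. FOSB had 922 and 942 normalized counts in controls 10 and 11 and 36.9 to 189 in the other 9. Both high animals belonged to cohort 2, but control 9 of the same cohort had 85.5, and in cohort 1 alone the CV of FOSB was 0.662. EGR1, another immediate early gene, was also highest in controls 11 and 10, with levels of 37.5 and 27.5 against 4.71 to 19.9 elsewhere. FOS itself was at 0 in 8 of 11 animals. The alarmin IL33 had a CV of 1.44, with 556, 325 and 320 normalized counts in controls 5, 8 and 3 and 6.46 to 55.6 in the others. PI16, CCN3 and the apelin receptor APLNR had CVs of 1.36, 1.25 and 1.21 and were highest in the same 3 animals, which were also those with the most TH. Without control 5 the CV fell to 0.791 for PI16 and 0.795 for CCN3. The summed endothelial genes were at 23.1, 28.3 and 38.7 in controls 3, 5 and 8, within a range of 23.1 to 39.9 over all controls. The summed mural cell genes were at 49.0, 55.0 and 72.3 in these animals, against 28.1 to 43.9 in 7 of the others and 62.9 in control 4, and their part in the spread of these genes was not tested.

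Other variable genes followed different animals. The synaptic protein C1QL3 reached 403 normalized counts in control 11 and 5.11 in control 8, and the cadherin CDH23 reached 1601 in control 11 and 538 in control 2 against 63.4 to 344 elsewhere. IL12RB1, a cytokine receptor, was at 194, 178 and 138 in controls 4, 11 and 5 and at no more than 18.9 in the other 8. The transcription factors SHOX2, PAX5 and EN2 were among the 60 most variable genes counted in all 11 animals. SHOX2 had levels of 5.05, 4.45 and 2.40 in controls 4, 6 and 7 and at most 1.62 elsewhere. PAX5 was highest in control 5 at 2.82, and EN2, a midbrain and hindbrain factor, in controls 8, 5 and 3 at 1.66, 1.34 and 1.28. These 3 factors were chosen after their values were seen.

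**Figure D4:**
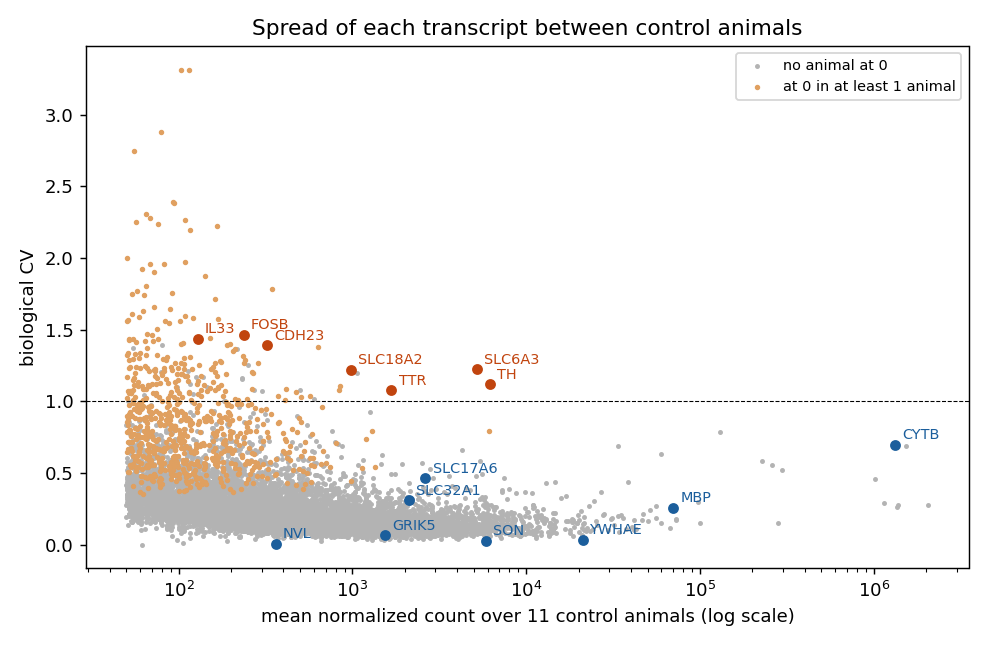
Biological CV of each of the 9059 transcripts against its mean normalized count over the 11 control animals (log axis), with transcripts at 0 in at least 1 animal in orange and the dashed line at a CV of 1. TH, SLC6A3 and SLC18A2 lie above 1 at high counts, where most transcripts are near the median of 0.212.

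The genes at the low end of the spread depended on the scaling. A CV under 0.1 was found for 810 transcripts (8.94%). The 10 lowest were NAPRT, NVL, KLHDC1, UBE2Z, SON, BLOC1S3, MRPS35, EMC7, STT3A and YWHAE, with CVs of 0 to 0.0343. On total counts their CVs were higher, from 0.113 for BLOC1S3 to 0.202 for EMC7. None of these 10 stayed among the 10 lowest on total counts, and 3 did so in cohort 1 alone. SON, a splicing cofactor, ran from 5587 to 6137 normalized counts, a 1.10-fold range, and the 14-3-3 protein YWHAE from 20121 to 22387, a 1.11-fold range. NAPRT, an enzyme of NAD synthesis, moved by 1.45-fold, but its mean of 61.9 normalized counts leaves no spread beyond counting error. The reference genes had a median CV of 0.174 over the 8 that were ranked, against 0.212 over all transcripts, with PPIA at 0.0863, SDHA at 0.106, PGK1 at 0.146, ACTB at 0.168, GAPDH at 0.180 and YWHAZ at 0.180. TBP had a CV of 0.563 and was at 0 in 1 animal.

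Mitochondrial transcripts combined the highest levels with an uneven pattern. ATP6, a subunit of the ATP synthase, had a median level of 100848, and the oxidase subunits COX3, COX2 and COX1 had 74658, 67058 and 55530. COX1 ranged from 43188 to 92304. CYTB, the core of complex III, stood at 10.9 in control 3, 14.7 in control 6 and 9914 in control 2, but at 45587 to 100005 in the other 8 animals. ND4L was at 0.135, 0.766 and 7.83 in controls 3, 6 and 2 and at 15650 to 45402 elsewhere, and ND6 was at 0 in controls 2 and 3. ND4 was also lowest in these 3 animals. The same 3 libraries were thus the lowest for 4 genes of the mitochondrial genome, while their COX1 levels, at 43224 to 57788, lay among those of the other animals. Mitochondrial genes have near-identical copies in the nuclear genome, so these values are uncertain, and how reads were assigned between such copies was not tested.

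**Figure D5:**
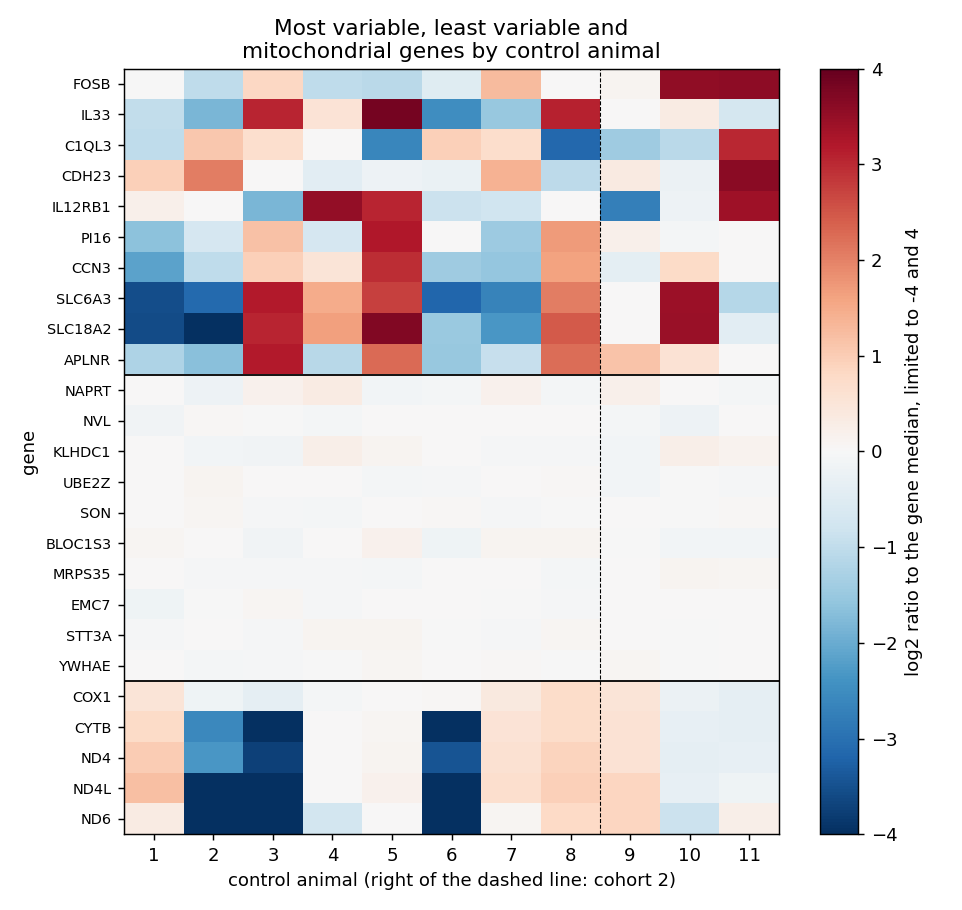
Log2 ratio of the normalized count of each gene in each control animal to the median of that gene, limited to -4 and 4, for the 10 most variable genes counted in all animals (top), the 10 least variable (middle) and 5 mitochondrial genes (bottom). CYTB, ND4, ND4L and ND6 are low in controls 2, 3 and 6, and FOSB is high in controls 10 and 11.

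The cohort was the only batch the study names, and it was tested between the 8 controls of cohort 1 and the 3 of cohort 2. Of 12625 transcripts, 0 were higher and 0 were lower in cohort 2 (0% called in each direction) by edgeR's quasi-likelihood test with Benjamini-Hochberg adjustment, and 493 had an unadjusted p under 0.05. DESeq2's Wald test called 7 higher and 18 lower, and limma-voom 5 higher and 0 lower. The lowest adjusted p in edgeR was 0.489, for GRN, the lysosomal growth factor progranulin, with levels of 1.94 to 3.96 in controls 9 to 11 against 6.51 to 12.8 in controls 1 to 8. Of the 500 most variable transcripts of cohort 1, 54.2% were also among the 500 most variable of cohort 2, against a list size of 5.52% of transcripts. For the 500 least variable this share was only 7.0%. The spread in cohort 2 rests on 3 animals, and transcripts at 0 in some animals were kept in these lists.

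No single axis dominated the variation between animals. The first 5 principal components of log2 CPM took 15.0, 12.7, 12.2, 11.5 and 10.7% of the variance, and the first set control 8, at -75.1, apart from controls 3 and 4 at 35.2 and 38.2. All 3 of these animals were high in TH. On the second, controls 5, 4, 8 and 3 stood at 46.7, 34.9, 29.5 and 8.93, and control 7, low in TH, at -58.0, but control 10, high in TH, at -12.3. On variance stabilized counts the first component took 20.8% of the variance, and its scores had a correlation of 0.79 in size with those given here over the 11 animals. The 10 genes with the largest loading at the positive end of the first component, among them IGBP1, ADAP1 and CDK16, were each at 0 in control 8 and in at least 1 other animal. At the negative end stood HABP4, NDST1, HNRNPK and RAB11A, at 0 in 4 to 7 animals, beside mitochondrial ND4L, ND6 and CYTB. Of these, ND4L and CYTB were counted in all 11 animals. The mitochondrial share of the library was 60.6% in control 8 and 36.4 and 46.3% in controls 3 and 4, and its part in the axis was not tested.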

How the data were processed

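Bulk RNA of 11 control VTA punches was prepared with the Universal Plus mRNA kit. The authors trimmed paired-end reads with Trim Galore 0.6.7, quantified them with Salmon 1.9.0 against Mmul_10 and deposited estimated counts, without normalization, of 1 Ensembl transcript per gene symbol, whose totals cover the listed transcripts and not the whole library. The submitters' notes also name DESeq2 1.36.0. The 1 entry without a symbol was left out. Cohorts came from the study's own tables. Counts were rounded, scaled by TMM in edgeR 4.0.16 (R 4.3.3) and divided by the longest RefSeq coding transcript, since lengths of the listed transcripts were not used here. Alternatives used DESeq2 1.42.0 and limma 3.58.1, and descriptions scipy 1.17.1, pandas 2.3.3 and numpy 2.4.6 (Python 3.11.15). Principal components and correlations used log2 CPM (prior count 2), correlations 100000 permutations, and within-animal ratios all 2048 sign flips, with 0.5 added to each count. Pairs of libraries had identical counts for 10.9 to 15.2% of transcripts, so no column of counts was a copy of another. The cohort test was tried on simulated data. Genes were named by rule: the 10 highest, the leading and missing members of each list, and the 10 most variable of those counted in all animals. The rule also named the 10 least variable, the 5 most abundant on-off transcripts, the ends of the first component and those most like TH. The control animals were taken by their labels alone, but the choice to describe them and the gene lists were made with earlier results of these data known. A few genes and 1 promoter that these rules name are not reported here.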

Additional observations from a re-analysis of the deposited data

How the results depend on the processing

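Of 225 recomputed values with a test, 207 kept their direction and their side of the threshold. Of 56 recomputed median levels, 21 moved by more than 1.5 times, among them 11 of 14 for TH (39.7 to 118) and 8 of 14 for SLC6A3 (14.0 to 37.8), while those of SLC32A1 and SLC17A6 moved that far only where mitochondrial transcripts were left out. The shortest transcript, an alternative chosen for these ratios after seeing the data, moved the geometric mean ratio of SLC6A3 to TH from 0.40 to 0.757, that of DDC from 0.143 to 0.150 and that of SLC18A2 from 0.0669 to 0.0667. Without length correction the log2 difference reversed to -0.10 for TH over SLC32A1, -0.20 for SLC32A1 over SLC17A6 and -1.41 for DBH over SLC6A5, which follows from the transcript lengths. In cohort 1 alone SLC17A8 over SLC17A7 was 1.48 and missed the threshold, with 8 animals. Leaving out 1 animal gave -0.10 to 0.71 for TH over SLC32A1, negative without control 3, 5 or 8, and 0.48 to 0.72 for SLC32A1 over SLC17A6, which passed without control 7 or 11 (exact permutation adjusted p = 0.0439 for each). It gave an r of -0.77 to -0.59 for SLC17A6 and MBP, past the threshold without control 7 or 10, -0.48 to 0.27 for SLC32A1 and SLC17A6, negative without control 5, -0.26 to 0.22 for SLC32A1 and MBP, positive without control 5 or 10, and -0.17 to 0.28 for SLC17A6 and GFAP, positive without control 5. Spearman's rho was -0.15 for SLC32A1 and SLC17A6 and 0.045 for SLC17A6 and GFAP, and on total counts r was 0.25 for SLC32A1 and MBP. The cause of these reversals was not tested. None of the reversed correlations had passed.

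Of the 10 most variable transcripts among those counted in all 11 animals, 5 to 9 stayed in the list when 1 animal was left out (5 without control 11). In cohort 1 alone 6 stayed, and 2 by the SD of log2 CPM. Of the 10 least variable, 4 to 8 stayed with 1 animal left out, 3 in cohort 1, 5 by the SD of log2 CPM and 0 on total counts. Which genes were in this list thus depended on the scaling and on the animals. With a mean normalized count of at least 10, 967 transcripts had a CV over 1, since more low transcripts entered. With mitochondrial transcripts left out, SLC32A1 rose to 67.2 and SLC17A6 to 54.9 CPM per kilobase because the library size was smaller. Between cohorts DESeq2 called 7 higher and 18 lower and limma-voom 5 higher, and leaving out 1 animal gave 0 higher and 0 to 2 lower (2 without control 9). Depth and a listing of 1 transcript per gene limit all genes at or near 0. No paired analysis was possible because only the control animals were compared here, their numbers were given in accession order, and the labels do not tie a control to another animal.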
